A study of Mus musculus with 2 samples.

Results

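DNA break ends were examined at 5 genes for lymphoid transcription factors that lie at fragile sites: Bach2, Bcl11a, Foxp1, Ikzf1 and Ikzf3. The genes were chosen by name, with earlier results of these data known. Their fragile-site class was taken from earlier knowledge and not from these files. All 5 were found among 47042 genes of chromosomes 1 to 19 in the RefSeq table. The assay was END-seq, which captures the ends of double-strand breaks from cells lysed in agarose plugs and sequences inward from them. Each counted position was therefore taken as a break end on 1 strand, and no background was subtracted here. The material was CD43-negative B cells from mouse spleen. The S_activated group is 1 library of S-phase cells that had received IL-4 (25 ng/mL) with anti-CD40 (1 µg/mL) during 24 to 28 h of culture. The G1_quiescent group is 1 library of quiescent cells in G1 phase cultured for the same time without these agents. The mice were 4 to 8 weeks old. Both titles carry the prefix ATR+c, which the labels do not explain, and they give neither a strain nor the number of mice. Phase and activation changed together and cannot be told apart, and the labels do not describe how the cells of a phase were obtained.

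Because each group is a single library, nothing could be tested across replicates and no p-value is given. Every ratio below divides S phase by G1 phase, scaled to the reads on chromosomes 1 to 19, which numbered 20543572 and 26889564. The 95% intervals cover counting error only, and how far either condition varies between preparations is unknown. A covered position held 2.90 reads on average in S phase, against 3.99 for G1. Reads at the same position can be copies of 1 molecule, so read-based intervals are too narrow. The main values are therefore given also with every covered position of a strand counted once, over 7087979 and 6738117 such positions. DNA reads carry no expression, so the cell type on the labels was not checked against marker genes.

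Fragile sites are stretches of the genome that break preferentially when replication is disturbed. One class replicates early in S phase and lies in gene-dense, actively transcribed regions, and in B cells it includes genes of the lymphoid programme. Such genes also recur at rearrangements in lymphoid cancers. Bach2 encodes a repressor that restrains plasma cell differentiation. Bcl11a encodes a zinc finger factor needed for B lymphoid development, and Foxp1 a forkhead factor that acts early in the B lineage. Ikzf1 encodes Ikaros, the zinc finger regulator of lymphoid commitment, and Ikzf3 encodes Aiolos, its relative in later B cells.

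In mm10, which represents GRCm38, Bach2 (NCBI gene 12014) spans chr4:32238413-32586109 on the plus strand. Bcl11a (14025) spans chr11:24076564-24173558 and Ikzf1 (22778) chr11:11684962-11772930, both on the plus strand. Foxp1 (108655) spans chr6:98925342-99522746 on the minus strand. Ikzf3 (22780) spans chr11:98464610-98546031, and its orientation on the minus strand was taken from general knowledge of the locus. The genes are 348, 97.0, 88.0, 597 and 81.4 kb long in the order Bach2, Bcl11a, Ikzf1, Foxp1 and Ikzf3. No other protein-coding gene of the table overlapped any of them within 2 kb. Records of other types did, 2 at Bcl11a, 5 at Foxp1 and 1 at each of the others. Of these, Gm11999 runs across the record start of Ikzf1, and A830031A19Rik ends within the 2 kb before Bcl11a. Exons and introns were not analysed here.

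The RefSeq promoter table gave 7 start sites for 4 of the genes, namely 1 each for Bach2 and Bcl11a, 3 for Foxp1 and 2 for Ikzf1. The 250 bases before a start (GRCm38.p6, 5′ to 3′ in the direction of transcription) are shown for the 4 starts whose surrounding 1 kb on each side differed most between the libraries, and for the outermost Foxp1 start as a contrast. Capitals mark CpG dinucleotides.
Bach2, chr4:32417185-32417434, plus strand: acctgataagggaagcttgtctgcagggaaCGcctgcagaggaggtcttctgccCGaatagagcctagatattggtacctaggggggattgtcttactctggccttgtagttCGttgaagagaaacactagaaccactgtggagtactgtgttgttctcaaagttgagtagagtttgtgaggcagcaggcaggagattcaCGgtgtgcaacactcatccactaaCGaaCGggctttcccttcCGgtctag
Bcl11a, chr11:24080445-24080694, plus strand: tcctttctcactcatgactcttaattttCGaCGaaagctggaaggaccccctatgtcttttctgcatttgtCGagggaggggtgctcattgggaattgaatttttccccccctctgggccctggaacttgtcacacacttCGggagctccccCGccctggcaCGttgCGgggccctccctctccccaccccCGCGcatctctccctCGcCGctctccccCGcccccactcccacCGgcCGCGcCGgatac
Foxp1 start 3, chr6:99028299-99028548, minus strand: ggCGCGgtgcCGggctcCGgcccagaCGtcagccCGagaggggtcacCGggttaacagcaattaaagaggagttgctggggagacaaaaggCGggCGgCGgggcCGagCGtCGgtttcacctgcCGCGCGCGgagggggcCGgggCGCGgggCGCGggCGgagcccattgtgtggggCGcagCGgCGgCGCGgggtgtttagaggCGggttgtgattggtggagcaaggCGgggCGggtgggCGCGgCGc
Ikzf1 start 2, chr11:11689927-11690176, plus strand: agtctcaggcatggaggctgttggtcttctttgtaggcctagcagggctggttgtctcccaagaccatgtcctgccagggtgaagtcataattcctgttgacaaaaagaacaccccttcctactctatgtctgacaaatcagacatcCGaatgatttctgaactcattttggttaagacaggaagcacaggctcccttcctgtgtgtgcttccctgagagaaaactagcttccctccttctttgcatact
Foxp1 start 1, chr6:99520994-99521243, minus strand: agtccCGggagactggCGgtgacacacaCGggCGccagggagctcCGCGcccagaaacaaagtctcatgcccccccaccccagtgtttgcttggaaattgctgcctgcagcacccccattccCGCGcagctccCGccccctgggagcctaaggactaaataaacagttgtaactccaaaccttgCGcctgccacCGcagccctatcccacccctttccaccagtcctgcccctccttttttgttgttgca

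The Bach2 start lies 179 kb inside the gene record, and the 300 bases of its table entry, which run to 50 bases after the start, hold 7 CpG. That is more than 47.5% of 31365 listed starts hold. Foxp1 start 3 lies 494 kb inside its record and holds 44 CpG, more than 97.7% of starts. Bcl11a holds 23, Foxp1 start 1 holds 13 and Ikzf1 start 2 holds 2. Foxp1 start 2 holds 5 and Ikzf1 start 1 holds 52, the highest of the 7. The GC box (GGGCGG on either strand) was found 2 times at Bcl11a, 3 times at Foxp1 start 3, once at Foxp1 start 1 and 2 times at Ikzf1 start 1, and 36.0% of all listed starts hold at least 1. The Ets motif CCGGAAG, searched on both strands, was found only at Bach2, against 9.0% of all starts. CCAAT was found at Bach2, Bcl11a and Foxp1 start 3 (37.3% of all starts), and the Ikaros core TGGGAA at Foxp1 start 2 and at Bcl11a, where it overlaps CCAAT (25.3%). TATAAA (13.6%) and the E-box CACGTG (7.14%) had no match at the 7 starts, and Ikzf1 start 2 held none of the 6 motifs.

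The whole genes had modestly higher scaled counts of break ends in S phase, except Ikzf3. Counts were not scaled to the DNA copies at each gene, so a ratio is not a rate of breaks per copy. The part of copy number in the ratios was not tested. Together they held 10632 S-phase and 12022 G1 reads, a ratio of 1.16 (1.13 to 1.19). Counted as positions the numbers were 3699 and 2861, a ratio of 1.23 (1.17 to 1.29). The median over the 5 genes was 1.12 for reads and 1.23 for positions, and over all 34057 genes with at least 100 reads in the libraries together it was 1.08 (0.12 on the log2 scale) and 1.113. Relative to that median gene, the read ratios stood at 1.16 for Bach2, 1.17 for Bcl11a, 1.03 for Foxp1, 1.02 for Ikzf1 and 0.867 for Ikzf3. Calls required a change of 1.2 times in either direction. Of the 5 genes 2 were called higher and 0 lower, where 34.3% of all genes were called higher. Among 4970 protein-coding genes with at least 1000 reads, as all 5 have, 18.8% were. Counted as positions 4 of the 5 were called higher, where 37.1% of all genes and 23.1% of those with at least 1000 reads were.

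Bach2 held 3063 S-phase and 3187 G1 reads, which gave 1.26 (1.197 to 1.32). Its positions numbered 1048 and 794, which gave nearly the same ratio, 1.25 (1.14 to 1.38). Bcl11a had the highest ratio of the 5, with 1191 and 1233 reads, 1.26 (1.17 to 1.37), and 398 and 278 positions, 1.36 (1.16 to 1.59). In both genes reads and positions put the whole interval above 1.

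Foxp1, the longest of the 5, held 4861 and 5689 reads, a ratio of 1.12 (1.08 to 1.16). Its 1706 and 1335 positions gave 1.21 (1.13 to 1.31). Ikzf1 held 937 and 1105 reads, a ratio of 1.1099 (1.02 to 1.21), and 330 and 256 positions, 1.23 (1.04 to 1.45). For these 2 genes the call thus depended on how stacked reads were counted. Reads per covered position at the 5 genes ran from 2.67 to 2.99 in S phase, around the 2.80 of all genes, and from 4.01 to 4.44 in G1 phase, above the 3.87 of all genes. The part of this stacking in the read ratios was not tested.

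Ikzf3 was the exception, with 580 and 808 reads, a ratio of 0.940 (0.843 to 1.05). Its 217 and 198 positions gave 1.04 (0.855 to 1.27). Both intervals held 1, and a difference between the libraries was not detectable at this depth. The intervals from reads were above 1 for 4 of the 5 genes, against 42.4% of the genes with at least 1000 reads, and those from positions also for 4 of 5, against 24.9%. Such intervals narrow with depth, and Foxp1 (10550 reads) and Bach2 (6250) lie far above 1000. By size the read ratios exceeded 71.9% of all genes at Bach2, 72.5% at Bcl11a, 54.9% at Foxp1, 53.8% at Ikzf1 and 27.9% at Ikzf3. In positions these shares were 69.9%, 80.2%, 65.0%, 66.4% and 38.7%.

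**Figure D1:**
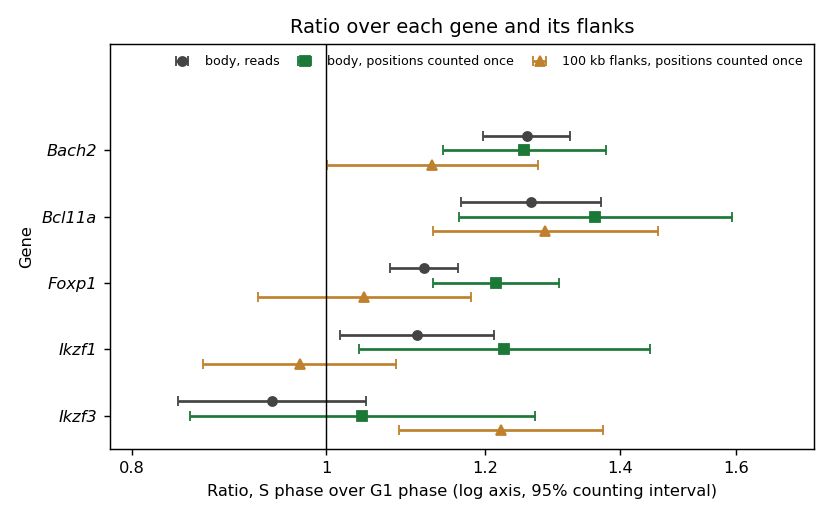
S-phase over G1 ratio (log axis) for each gene body with 2 kb flanks, from reads (circles) and from covered positions counted once (squares), and for the 100 kb on both sides together (triangles, positions). Bars are 95% counting intervals from 1 library per group. Bach2, Bcl11a, Foxp1 and Ikzf1 lie above 1 in both counts, while the bars of Ikzf3 cross 1 and its flanks lie at 1.22.

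Few differences between the genes exceeded counting error once positions were counted. Positions are fewer than reads and give wider intervals, so this does not show that the differences were smaller. For Bcl11a over Ikzf3 the quotient from reads was 1.35 (1.18 to 1.54). Of the 10 pairs of genes, 8 differed in their ratio beyond the read-based interval, but only 1 did so when positions were counted, Bcl11a over Ikzf3 at 1.31 (1.02 to 1.67). Bcl11a and Bach2 did not differ beyond counting error, with a quotient of their ratios of 1.01 (0.915 to 1.104) from reads and 1.08 (0.907 to 1.30) from positions. Foxp1 and Ikzf1 did not either, at 1.01 (0.916 to 1.108) and 0.991 (0.829 to 1.18).

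The level of break ends per kb was highest at Bcl11a and Ikzf1 in both libraries. On the RPKM scale, reads per kb scaled to the library total, the S-phase levels were 0.574 for Bcl11a, 0.496 for Ikzf1, 0.424 for Bach2, 0.393 for Foxp1 and 0.331 for Ikzf3. In G1 phase Bcl11a stood at 0.454, Ikzf1 at 0.447, Foxp1 at 0.352, Ikzf3 at 0.352 and Bach2 at 0.337. By reads Bach2 was thus the lowest of the 5 in G1 phase and the third in S phase. In positions per kb the S-phase order was the same, but in G1 phase Ikzf1 (2.78) came before Bcl11a (2.75), followed by Ikzf3 (2.32), Bach2 (2.26) and Foxp1 (2.22). Against all genes with at least 100 reads the level of Bach2 in reads exceeded 34.6% in G1 phase and 58.1% in S phase. Bcl11a exceeded 71.6% and 84.6%, Ikzf1 70.0% and 75.4%, Foxp1 40.2% and 47.3%, and Ikzf3 40.2% and 22.5%.

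Neighbours in the order by reads were often inseparable. In positions per kb, Ikzf1 exceeded the gene next below it in both libraries, Bach2 in S phase at 1.204 (1.06 to 1.36) and Foxp1 in G1 phase at 1.25 (1.09 to 1.43). No other pair of neighbours differed beyond the interval from positions. Reads separated all 4 neighbouring pairs in S phase but only Ikzf1 and Foxp1 in G1 phase.

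**Figure D2:**
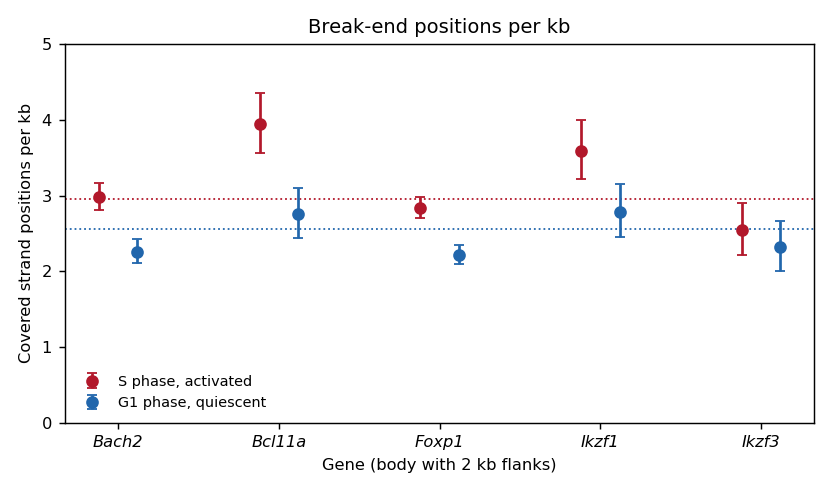
Covered strand positions per kb over each gene with 2 kb flanks, for S phase (red) and G1 phase (blue), not scaled to the library totals. Bars are 95% Poisson intervals, and dotted lines are the medians over 34057 genes, 2.96 and 2.55. Bcl11a and Ikzf1 lie above the S-phase line at 3.94 and 3.59, and Bach2 and Foxp1 below the G1 line at 2.26 and 2.22.

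The 100 kb on both sides showed whether a gene stood apart from its surroundings. Around Bcl11a the flanks were themselves higher in S phase, with 1616 and 1747 reads, a ratio of 1.21 (1.13 to 1.30), and the gene exceeded them by 1.04 (0.941 to 1.16), or 1.06 (0.868 to 1.29) in positions. The side before the gene stood at 1.34 (1.22 to 1.48) and the side after it at 1.1002 (1.00 to 1.21), or 1.404 (1.16 to 1.70) and 1.18 (0.987 to 1.42) in positions. Over 500 kb on each side the values were closer, at 1.127 (1.08 to 1.17) and 1.102 (1.06 to 1.15). Bcl11a exceeded these wider flanks together by 1.13 (1.04 to 1.23), or 1.24 (1.06 to 1.46) in positions. Whether it stood apart thus depended on the flank size. Around Bach2 the flanks held 1861 and 2218 reads, a ratio of 1.098 (1.03 to 1.17), and the gene exceeded them by 1.15 (1.06 to 1.24), or 1.111 (0.956 to 1.29) in positions. Against 500 kb on each side these were 1.19 (1.12 to 1.26) and 1.15 (1.03 to 1.28).

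Around Ikzf1 the flanks were level, their 1817 and 2378 reads giving 1.00 (0.940 to 1.06). The gene exceeded them by 1.1098 (0.998 to 1.23), and by 1.26 (1.04 to 1.54) in positions. Foxp1 exceeded its flanks, which held 1444 and 1785 reads, by 1.06 (0.976 to 1.14), or 1.16 (1.01 to 1.34) in positions. Ikzf3 went the other way. Its flanks held 1654 and 1889 reads, a ratio of 1.15 (1.07 to 1.22), and the gene stood below them at 0.820 (0.723 to 0.929), or 0.853 (0.682 to 1.07) in positions. Against 500 kb on each side Ikzf1 stood at 1.08 (0.985 to 1.18), Foxp1 at 1.05 (1.002 to 1.106) and Ikzf3 at 0.820 (0.735 to 0.916). In positions these were 1.22 (1.03 to 1.45), 1.12 (1.02 to 1.23) and 0.877 (0.719 to 1.07). Bcl11a, Ikzf1 and Ikzf3 lie on chromosome 11, whose ratio as a whole was 1.06 (1.057 to 1.063), while chromosomes 4 and 6 stood at 1.01 and 0.986.

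Break ends were spread along each gene without a dominant site. In both libraries the position with the most reads held between 9 and 16 reads in each gene, at most 1.55% of the gene's reads. A local peak was a 1 kb bin of at least 10 reads and 10 times the median of the 100 kb around it. The 5 genes had 0 such peaks in either library, where 17.6% of 3678 protein-coding genes of at least 50 kb with a listed start had 1 or more in S phase and 11.3% in G1 phase. The highest 1 kb bin in S phase lay in Bach2, 15.9 kb before the listed start, with 40 reads and 34 in G1 phase. Only 30 positions were covered in both libraries, 0.811% of the S-phase and 1.05% of the G1 positions of the 5 genes. Over chromosomes 1 to 19 the shares were 1.83% and 1.93%.

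In bins of 10 kb the excess in S phase was spread over many bins. Of 127 bins along the 5 genes, 85 had a ratio above 1, where 50.4% of all 239515 windows of the autosomes with at least 20 reads did. With positions counted once 97 were above 1, where 52.2% of windows were. Calling a bin required a change of 2 times in either direction with both strands going the same way. Only 5 bins were called higher and 2 lower, where 2.89% and 2.24% of windows were. From reads 35 of the 127 intervals lay above 1 and 9 below, where 18.7% and 17.6% of windows did, and from positions 9 and 1, where 3.45% and 3.42% did. The calls depended on the bin size. In bins of 5 kb 21 of 250 were called higher and 7 lower, where 7.91% and 6.95% of such windows were, and in bins of 20 kb 0 of 65 were called either way, where 0.556% and 0.317% were. The windows of the background include gene-free regions.

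In Bach2, 27 of 36 bins were above 1, with a median of 1.24. The highest bin held its listed start, chr4:32416413-32426412, with 107 S-phase and 45 G1 reads, 3.11 (2.18 to 4.51), and 31 and 11 positions. The next, 98 to 108 kb into the record, held 139 and 88 reads, 2.07 (1.57 to 2.73), the most S-phase reads of any Bach2 bin, on 44 and 23 positions. The lowest bins, 198 to 208 kb and 38 to 48 kb in, stood at 0.776 (0.531 to 1.12) and 0.782 (0.550 to 1.105). From reads 12 Bach2 bins had an interval above 1 and 0 below, and from positions 2 and 0. In G1 phase the bins at 28 to 38 kb and at 348 to 358 kb held the most reads, each with 131 against 98 in S phase.

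In Bcl11a, 9 of 11 bins were above 1. The first bin, from 2 kb before to 8 kb after the record's start, held the most S-phase reads of any bin of the 5 genes, 188 against 151, a ratio of 1.63 (1.31 to 2.03), with 66 and 34 positions. The bin at 78 to 88 kb was highest by ratio, with 118 and 76 reads, 2.03 (1.51 to 2.75), and 36 and 15 positions. The lowest were at 28 to 38 kb, with 80 and 141 reads, 0.743 (0.557 to 0.984), and at 58 to 68 kb, with 115 and 164 reads, 0.918 (0.717 to 1.17). In positions these stood at 0.887 (0.511 to 1.54) and 1.12 (0.690 to 1.82), and both intervals held 1.

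In Foxp1, 35 of 61 bins were above 1, with a median of 1.097. The bin at 8 to 18 kb held 97 and 56 reads, 2.27 (1.61 to 3.21), and that at 178 to 188 kb 107 and 63, 2.22 (1.61 to 3.09). In positions they stood at 2.54 (1.27 to 5.40) and 2.08 (1.12 to 4.02). The lowest, at 228 to 238 kb, held 49 and 128 reads, 0.501 (0.353 to 0.702), just short of a call, and 16 and 30 positions. It was followed by the bin at 338 to 348 kb, with 62 and 123 reads, 0.660 (0.478 to 0.902), which in positions was 0.815 (0.452 to 1.46). The most S-phase reads lay at 328 to 338 kb, 142 against 97, 1.92 (1.47 to 2.51), and the most G1 reads at 218 to 228 kb, 155 against 93. From reads 16 Foxp1 bins had an interval above 1 and 5 below, and from positions 4 and 1.

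The called bins of Ikzf1 and Ikzf3 were both lower in S phase. In Ikzf1 the bin at 28 to 38 kb held 59 and 158 reads, 0.489 (0.356 to 0.663), but 26 and 32 positions, a ratio of 0.772 (0.442 to 1.34) whose interval held 1. The highest bin of Ikzf1, at 78 to 88 kb, held 139 and 114 reads, 1.596 (1.24 to 2.06), and 50 and 29 positions. The bin at 58 to 68 kb followed at 1.295 (0.963 to 1.74), and the second lowest, at 68 to 78 kb, stood at 0.899 (0.650 to 1.24). In positions the latter were 1.25 (0.695 to 2.29) and 1.06 (0.603 to 1.87). In Ikzf3 the bin at 68 to 78 kb, near the far end of the gene, held 32 and 102 reads, 0.411 (0.267 to 0.616), and 14 and 26 positions, 0.512 (0.247 to 1.02). Its highest bin, at 48 to 58 kb, held 77 and 68 reads, 1.48 (1.06 to 2.08), followed by that at 58 to 68 kb at 1.42 (0.942 to 2.13). The bin at 8 to 18 kb held the most reads in both libraries, 115 and 123. The second lowest, at 38 to 48 kb, stood at 0.686 (0.484 to 0.963). In positions none of the Ikzf3 bins, 0 of 9, had an interval without 1.

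**Figure D3:**
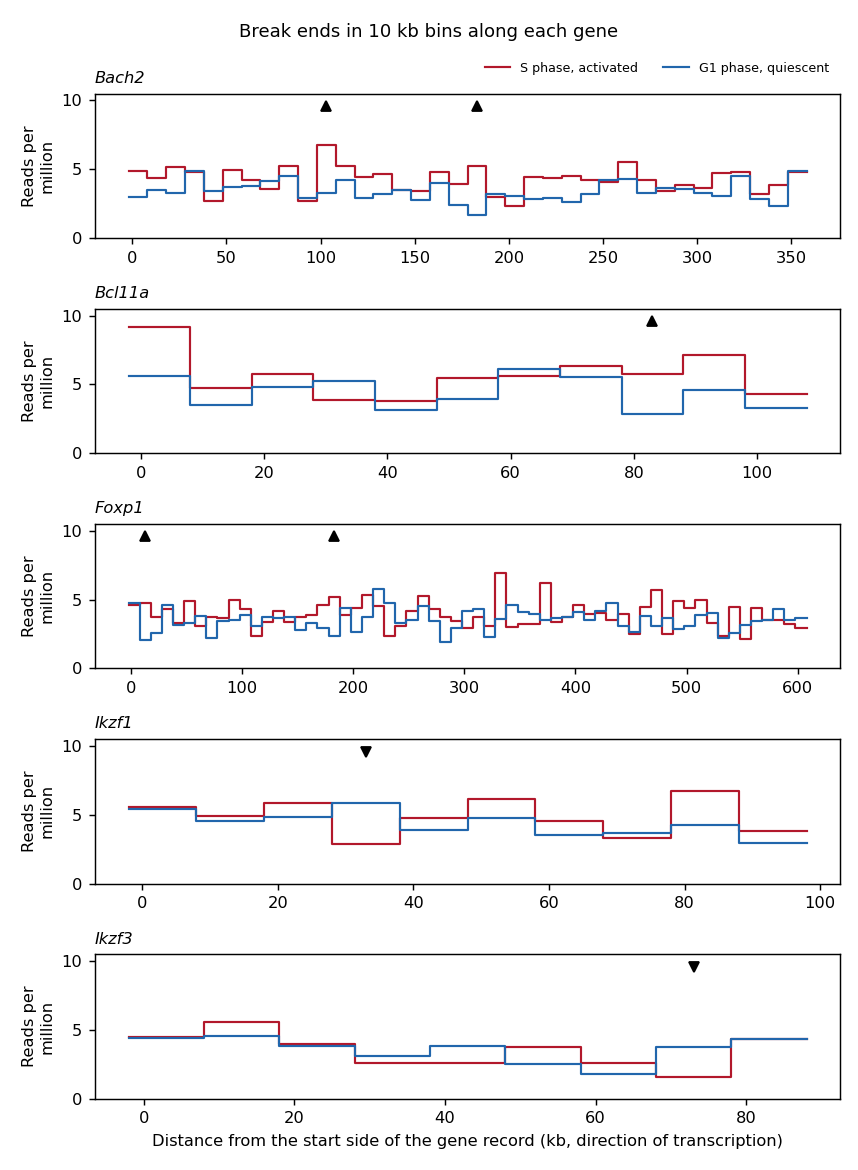
Reads in 10 kb bins, scaled to the library total (RPM), along each gene, from 2 kb before the start side of its record in the direction of transcription (kb), for S phase (red) and G1 phase (blue). Triangles mark the 5 bins called higher (pointing up) and the 2 called lower (pointing down) in S phase. The last bin of each gene runs past its end.

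The start-proximal part, 2 kb before to 10 kb after the outermost listed start, was set against the rest of each gene. Per kb, the start-proximal part held more reads than the rest in S phase in all 5 genes and in G1 phase in 3 of 5, where 66.5% and 61.1% of 3678 genes did. In positions it held more in 4 of 5 and 3 of 5 genes, where 65.2% and 57.6% did. The quotient of these 2 start-over-rest values, S phase over G1 phase, was at least 1.2 in 2 of 5 genes (background 37.7%) and at most 1/1.2 in 1 (20.7%). By reads Bach2 and Bcl11a were the higher ones and Foxp1, from its outermost start, the lower one. In positions the quotient was at least 1.2 in 3 of 5 genes, where 35.5% of genes were, and Foxp1 was not called. The interval from reads lay above 1 at Bach2 and Bcl11a, where 28.4% of genes had such an interval. That from positions lay above 1 at Bcl11a and, barely, at Ikzf3, where 6.63% of genes did.

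At Bach2 the start-proximal part held 109 S-phase and 69 G1 reads, or 9.08 and 5.75 per kb, against 8.70 and 9.18 per kb in the rest. The quotient was 1.67 (1.23 to 2.26), and 1.69 (0.911 to 3.13) in positions, of which there were 33 and 15. The S-phase value was ordinary, with a start-over-rest of 1.04 that exceeded 38.0% of genes. The G1 value, 0.626, exceeded only 4.54%, so it was the G1 library in which the start was low. At the outer end of the gene record, 179 kb upstream of the listed start, the quotient was 1.204 (0.917 to 1.58). The G1 start-over-rest there was 0.917, above 28.8% of genes, and that in S phase was 1.104, above 44.8%.

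Bcl11a showed the same arrangement when counted from its listed start. Its start-proximal part held 163 and 109 reads, 13.6 and 9.08 per kb, against 11.6 and 12.6 per kb in the rest, a quotient of 1.64 (1.26 to 2.11). The 60 and 24 positions gave 1.88 (1.14 to 3.10). The start-over-rest of 1.18 in S phase exceeded 52.0% of genes and the 0.719 in G1 phase 9.46%. Counted from the end of the gene record, 4.13 kb upstream, the quotient was 1.22 (0.979 to 1.53). The G1 start-over-rest was then 1.19, above 59.9% of genes, and that in S phase 1.46, above 73.0%. The low G1 value at Bcl11a thus depended on the start used.

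At the other 3 genes the read-based intervals held 1. Ikzf1 held 150 and 170 start-proximal reads, a quotient of 1.05 (0.825 to 1.33), with 54 and 36 positions. Foxp1 held 100 and 147, a quotient of 0.792 (0.612 to 1.02), with 35 and 31 positions. At Ikzf3, with the start at the right end of its record, the part held 107 and 134 reads, 1.14 (0.860 to 1.51). Its 47 and 28 positions gave 1.68 (1.00 to 2.81), about as large as at Bach2. The same 12 kb at the opposite end of Ikzf3 held 35 and 104 reads and stood at 0.435 (0.292 to 0.648).

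**Figure D4:**
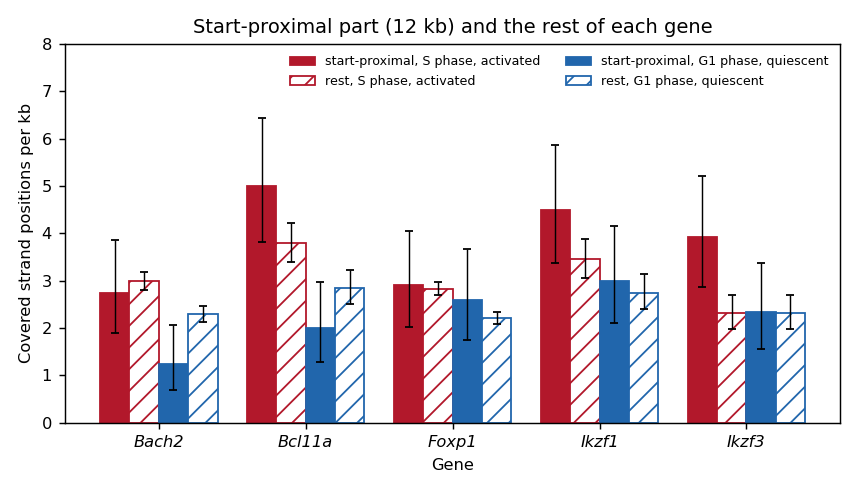
Covered strand positions per kb in the 12 kb start-proximal part (filled bars) and in the rest (hatched bars) of each gene, for S phase (red) and G1 phase (blue), with 95% Poisson intervals. In G1 phase the start-proximal part is lower than the rest at Bach2 (1.25 and 2.29) and Bcl11a (2.00 and 2.85), and in S phase it is higher than the rest at Ikzf3 (3.92 and 2.32).

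Close to the starts the difference was larger at some sites. The window of 1 kb on each side of a start, and a size of 2 for it, were set after the bins had been seen. Of the 7 listed starts 6 were above 1 and 4 were called higher, with at least 2 times the reads, where 63.9% and 22.5% of 27068 starts with at least 20 reads were. In positions 3 of the 7 had an interval above 1, where 7.21% of starts did. The pooled ratio over all 31365 starts was 1.36 from reads and 1.31 from positions.

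Foxp1 start 3, the CpG-rich start shown above, held 35 S-phase reads on 9 positions and 5 G1 reads on 1 position, giving 9.16 (3.57 to 30.0), or 8.56 (1.19 to 375) in positions. The Bcl11a start held 53 reads on 19 positions and 15 reads on 6, a ratio of 4.62 (2.57 to 8.83), or 3.01 (1.16 to 9.21). Ikzf1 start 2 held 35 reads on 14 positions and 16 reads on 4, a ratio of 2.86 (1.54 to 5.54), or 3.33 (1.04 to 13.9). Bach2 held 30 reads on 8 positions and 19 reads on 3, a ratio of 2.07 (1.13 to 3.89), or 2.54 (0.608 to 14.8). The differences at these starts rest on few positions.

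The other starts did not differ beyond counting error. Ikzf1 start 1, which holds the most CpG of the 7, had 42 and 39 reads, 1.41 (0.890 to 2.24). Foxp1 start 2 had 21 and 22, 1.25 (0.654 to 2.38), and Foxp1 start 1 had 11 and 25, 0.576 (0.256 to 1.21). Among the 4 starts with the larger ratios, Foxp1 start 3 and Bcl11a are rich in CpG, while Ikzf1 start 2 and Bach2 are not.

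**Figure D5:**
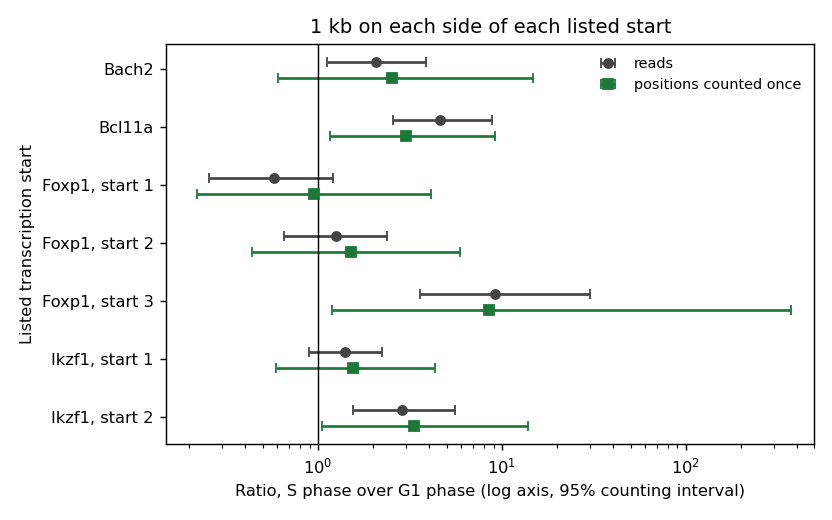
S-phase over G1 ratio (log axis) within 1 kb on each side of the 7 listed starts, from reads (circles) and covered positions counted once (squares), with 95% counting intervals. Starts of a gene are numbered in the direction of transcription. Foxp1 start 3 (9.16) and Bcl11a (4.62) are highest by reads, and Foxp1 start 1 (0.576) is lowest.

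The strands were near balance over whole genes, with sense reads between 46.7% and 51.0% in S phase and between 50.3% and 54.5% in G1 phase. Sense means the file's strand equal to the gene's. Foxp1 departed from balance in G1 phase, with 733 sense and 602 antisense positions, 54.9% (52.2 to 57.6), against 51.0% (48.6 to 53.4) in S phase. The interval from positions left out 50% in G1 phase for 13.4% of genes with at least 1000 reads, so such a departure was common. In S phase 0 of the 5 genes had such an interval, where 16.8% of genes did. Near the Bach2 start the libraries differed mainly on the antisense strand. In the start-proximal part 73 antisense reads in S phase stood against 20 in G1 phase, on 22 and 4 positions, while sense reads numbered 36 and 49, on 11 positions in each library. The sense share there was 33.0% (24.3 to 42.7) and 71.0% (58.8 to 81.3). In the rest of Bach2 it was 47.7% and 49.9%. Over both strands the listed Bach2 start was low in the G1 library. Whether the antisense difference reflects more S-phase ends or fewer G1 ends was not tested. At Bcl11a the start-proximal difference lay on both strands, with 36 sense and 24 antisense positions in S phase and 11 and 13 in G1 phase.

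Relatives of the 5 genes had mixed ratios. Of 8 listed paralogs 7 lie on the autosomes and had at least 100 reads, and Foxp3 was not analysed here. Of these 5 had a ratio above 1, where 63.1% of all genes do. Of the 7, 3 were called higher and 0 lower, where 34.3% and 15.9% of all genes were. The median of the paralogs was 1.03. Foxp4 was highest, with 569 and 406 reads, 1.83 (1.61 to 2.09), or 1.76 (1.38 to 2.25) in positions, followed by Ikzf4 at 1.398 (1.198 to 1.63) and Bcl11b, a T lineage factor, at 1.25 (1.111 to 1.41). Foxp2 was lowest at 0.880 (0.848 to 0.913), or 0.919 (0.858 to 0.984) in positions, then Ikzf5 at 0.885 (0.755 to 1.03) and Bach1 at 1.01 (0.875 to 1.17).

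Foxp1 differed from Foxp2 and Foxp4 in opposite directions. Foxp1 and Foxp2 lie on the same chromosome and are of similar length, 597 and 541 kb. Foxp2 held 4676 and 6956 reads, and the ratio of Foxp1 exceeded that of Foxp2 by 1.27 (1.21 to 1.34), or 1.32 (1.197 to 1.46) in positions. Foxp1 in turn stood below Foxp4 at 0.610 (0.534 to 0.696), or 0.692 (0.540 to 0.886) in positions. Bcl11a and Bcl11b did not differ beyond counting error, at 1.01 (0.878 to 1.16), and neither did Ikzf3 and Ikzf2, at 0.915 (0.805 to 1.04). In positions, 3 of 10 such pairs differed, the third being Ikzf3 below Ikzf4 at 0.671 (0.479 to 0.938).

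Other transcription factors of the B lineage had ratios like those of the 5 genes. All 30 of the list had at least 100 reads, 26 stood above 1, 14 were called higher and 1 lower, and the median was 1.15 from reads and 1.23 from positions. The background rates of calls were 34.3% higher and 15.9% lower, and 63.1% of all genes stood above 1. The highest were the inhibitors of E proteins Id3, with 81 and 38 reads, 2.79 (1.88 to 4.22), or 2.42 (1.17 to 5.39) in positions, and Id2 at 2.29 (1.66 to 3.17), then the repressor Gfi1 at 1.85 (1.34 to 2.56). These are short genes, of which the 2 kb flanks make up a large part. Mef2b was lowest at 0.794 (0.619 to 1.01), followed by Irf4 at 0.918 (0.766 to 1.098) and Mef2c at 0.982 (0.923 to 1.04). The median of the 5 genes at fragile sites, 1.12 from reads and 1.23 from positions, was close to these.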

How the data were processed

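END-seq was analysed from 2 libraries, 1 per group. The authors deposited whole-number counts of read ends per position, without normalization, as bedGraph tracks that keep the strands apart, per the file headers. The submitters' processing notes name Bowtie 1.1.2, SAMtools 1.11, bedtools and mm10. How duplicate and multiply matching reads were treated is not given in the sources used here, and stacked or repeated reads can shift any ratio. Sums and intervals were made in Python 3.11.15 (pandas 2.3.3, numpy 2.4.6, scipy 1.17.1) and drawn with matplotlib 3.10.9. Genes came from a RefSeq table and starts and sequences from a RefSeq promoter table, both of GRCm38.p6. Bodies carry 2 kb flanks. Ratios have conditional exact Poisson intervals, quotients of ratios intervals from the log odds, and shares exact Clopper-Pearson intervals. The code for intervals was tested on simulated data with independent reads. All 5 genes are described, with the 3 highest and 3 lowest genes of each other list, and for each gene the 2 highest and 2 lowest bins and those with the most reads. Genes, lists and sizes were chosen with earlier results of these data known. Alternatives covered scaling, flanks, strands, stacks, bins, thresholds and the choice of start.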

Additional observations from a re-analysis of the deposited data

How the results depend on the processing

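Of 45 alternatives for the whole genes 38 gave a ratio above 1, the other 7 being for Ikzf3, and 37 lay within the counting interval of the reported ratio. Bach2 moved to 1.18 for plus-strand reads and to 1.34 for minus-strand reads, and Foxp1 to 1.21 and 1.05. Scaled to the median gene, Bach2 stood at 1.16 and Foxp1 at 1.03. With each position counted once Foxp1 stood at 1.21 and Ikzf1 at 1.23, and Ikzf3 crossed 1 to 1.04 within its interval. The number of genes called higher, 2, became 4 at a size of 1.1 and 4 with positions counted once. It became 0 at a size of 1.5 and 0 when scaled to the median gene, which lowers every ratio by the same factor. With positions counted once 37.1% of all genes were called higher. The shares of all genes at sizes of 1.1 and 1.5 are not given here. The median over all genes, 1.08, lies close to 1.1, so the 4 calls at that size do not set these genes apart.

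The quotients of start over rest were less stable. Bach2 turned to 0.811 for plus-strand reads and rose to 3.69 for minus-strand reads, was 2.44 with a part of 5 kb and 1.204 from the end of the gene record. Bcl11a was 1.25 with 20 kb, 4.02 with 2 kb on each side and 1.22 from the end of the record. Foxp1 was 1.16 with 20 kb, 0.434 for plus-strand reads and 1.16 for minus-strand reads. Ikzf3 was 1.68 with positions counted once and 0.435 from the other end, a start chosen after seeing the data, as was the end of the record. The cause of these differences was not tested. Bins called higher and lower, 5 and 2, of 127 became 21 and 7 of 250 at 5 kb and 0 and 0 of 65 at 20 kb. With positions counted once 4 of the 127 bins were called higher and 0 lower. The share of all windows called under that rule is not given here. No paired analysis was possible because each group has 1 library. Depth limits single bins and starts, where few positions were covered.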
